A study of Mus musculus with 2 samples.

Results

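The miRNAs of the cluster that runs from Mir379 to Mir410 on mouse chromosome 12 were measured in embryonic stem cells without Dicer. Members were chosen by name from a fixed list of miRNA numbers, with any letter suffix and either arm, and the list uses no measured value, although it was drawn up with earlier results of these data known. This gave 78 of the 1907 mature miRNAs in the table, from 40 hairpin names. Both samples are Dicer knockout mouse embryonic stem cells of 129/Ola background, described as blastocyst-derived and labelled E14 under developmental stage. They were grown on gelatine-coated plates in DMEM with 15% serum, 100 U/mL LIF, beta-mercaptoethanol and antibiotics, and small RNA libraries were built from 1 µg of total RNA. The samples form 1 group of 2 replicates, called library 1 and library 2 here, and the labels give them the additional names C1 and H11. Whether these are separate knockout clones is not stated, so the spread between them may be technical or may lie between lines. No sample with intact Dicer was analysed here, and every comparison below is between the 2 knockout libraries.

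A miRNA hairpin is first released from a long primary transcript by Drosha, and Dicer then removes its loop to leave a short duplex of a 5p and a 3p arm. The Mir379 to Mir410 hairpins lie in the imprinted Dlk1-Dio3 domain, where the maternal chromosome expresses the noncoding RNAs Meg3, Rian and Mirg with their miRNAs and small nucleolar RNAs, and the paternal chromosome expresses the protein-coding genes Dlk1, Rtl1 and Dio3. The cluster is known for its expression in embryo, placenta and brain, and the maternal RNAs of this domain are known to be silenced in some mouse pluripotent stem cell lines.

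The 5 members that reached 10 counts over both libraries carry most of the counts described below, and their mature sequences from RefSeq (GRCm38.p6) are shown for that reason. They are written 5′ to 3′ with the seed, bases 2 to 8, in capitals.
miR-541-5p: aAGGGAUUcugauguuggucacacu
miR-411-5p: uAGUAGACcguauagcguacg
miR-410-3p: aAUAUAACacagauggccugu
miR-409-3p: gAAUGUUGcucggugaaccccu
miR-381-3p: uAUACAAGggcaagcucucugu
The 5 seeds all differ. They are 21 to 25 bases long, and 2 begin with U, 2 with A and 1 with G.

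The hairpins of the 2 most counted members are shown to place these arms, with both mature arms in capitals and the loop and flanks in lower case. Mir541 lies at chr12:109742409-109742498 on the plus strand, in an intron of Mirg. Mir411 lies at chr12:109710175-109710256 on the plus strand, before the annotated start of Mirg.
Mir541: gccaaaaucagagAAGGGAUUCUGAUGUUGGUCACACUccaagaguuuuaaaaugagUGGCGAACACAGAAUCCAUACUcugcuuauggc
Mir411: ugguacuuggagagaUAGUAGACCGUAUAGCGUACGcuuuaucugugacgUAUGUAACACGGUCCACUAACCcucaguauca
In both hairpins the arm that carried the counts was the 5p arm, the first run of capitals.

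GENCODE M21 (GRCm38) placed 39 of the 40 hairpins, all on chromosome 12, and Mir496b was not matched. From the start of Mir379 at 109709060 to the end of Mir410 at 109743795 the cluster spans 34.7 kb, and Mir3072 lies beyond it. Mirg itself is annotated from 109729764 to 109749460, so the name Mirg covers only the later hairpins in this annotation. Of the 39 hairpins, 25 lie before Mirg, from Mir379 to Mir544, and 14 lie within it, from Mir382 to Mir3072. Within Mirg, 5 hairpins are intronic, 4 are exonic and 5 cross an exon boundary when the exons of all its transcripts are joined. Mir299b is on the minus strand, opposite Mir299a, and whether the authors counted by strand is not given in the sources used here, but all 4 of their arms were at 0. Of the other hairpins with a tested arm, Mir381 at 109726822 to 109726896 lies before Mirg, Mir409 at 109743158 to 109743236 in an intron of it and Mir410 at 109743715 to 109743795 in an exon, all on the plus strand.

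Library 1 held 45222 counts over all miRNAs and library 2 held 37476, so 1 count stands for 22.1 CPM (counts scaled to a library total of 1000000) in the first and 26.7 CPM in the second. The most abundant entry, miR-3963, had 14612 of these counts in library 1 and 9512 in library 2. Entries numbered 1000 or below outside the cluster held 25.5% and 20.3%, so most of each total came from entries with higher numbers. Whether all of those are miRNAs was not tested. An entry at 0 could still have had a share of up to 0.00663% in library 1 and 0.00801% in library 2, taking 3 counts as the limit. No molecular identifiers are mentioned in the labels, so intervals and limits cover counting error only. The miR-290 cluster, which marks mouse embryonic stem cells, had counts for 14 of its 18 listed arms and held 3.62% of library 1 and 3.24% of library 2. Of the let-7 and miR-98 arms, typical of differentiated cells, 9 of 23 had counts, 30 in library 1 and 12 in library 2. Neural miRNAs (miR-9, miR-124 and miR-128) had 29 and 10 counts with miR-124-3p at 0, muscle miRNAs had none, and the blood list had 10 and 5 with miR-223 and miR-451a at 0. The other stem cell list, miR-302 with miR-367, had 4 counts in each library from 2 of 10 arms.

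The cluster was a small part of both libraries and held a larger share of library 2. In library 1 the cluster had 91 counts, 0.201% of the total (95% Wilson interval 0.164 to 0.247), and in library 2 it had 193, 0.515% (0.447 to 0.593), a mean of 0.358% ± 0.222 (SD, n = 2). The 2 intervals did not overlap. The share in library 2 was 2.56 times that in library 1, with an exact binomial interval of 1.98 to 3.32 for counting error. Because that list was drawn up with results known, no p-value is given for the summed counts.

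Most members gave no count. In both libraries 41 of the 78 members (52.6%) were at 0, against 59.8% of the 771 other miRNAs numbered 1000 or below. Of the 37 members with a count, 16 had one in both libraries, 7 in library 1 only and 14 in library 2 only. Those seen in library 1 only had at most 2 counts and those seen in library 2 only at most 4, which is close to the detection limit. The same split over all miRNAs of the table is not given. With a minimum of 10 counts in each library, 4 members were detected in both: miR-541-5p, miR-411-5p, miR-410-3p and miR-409-3p. By hairpin, 27 of the 39 placed hairpins had at least 1 count.

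**Figure D1:**
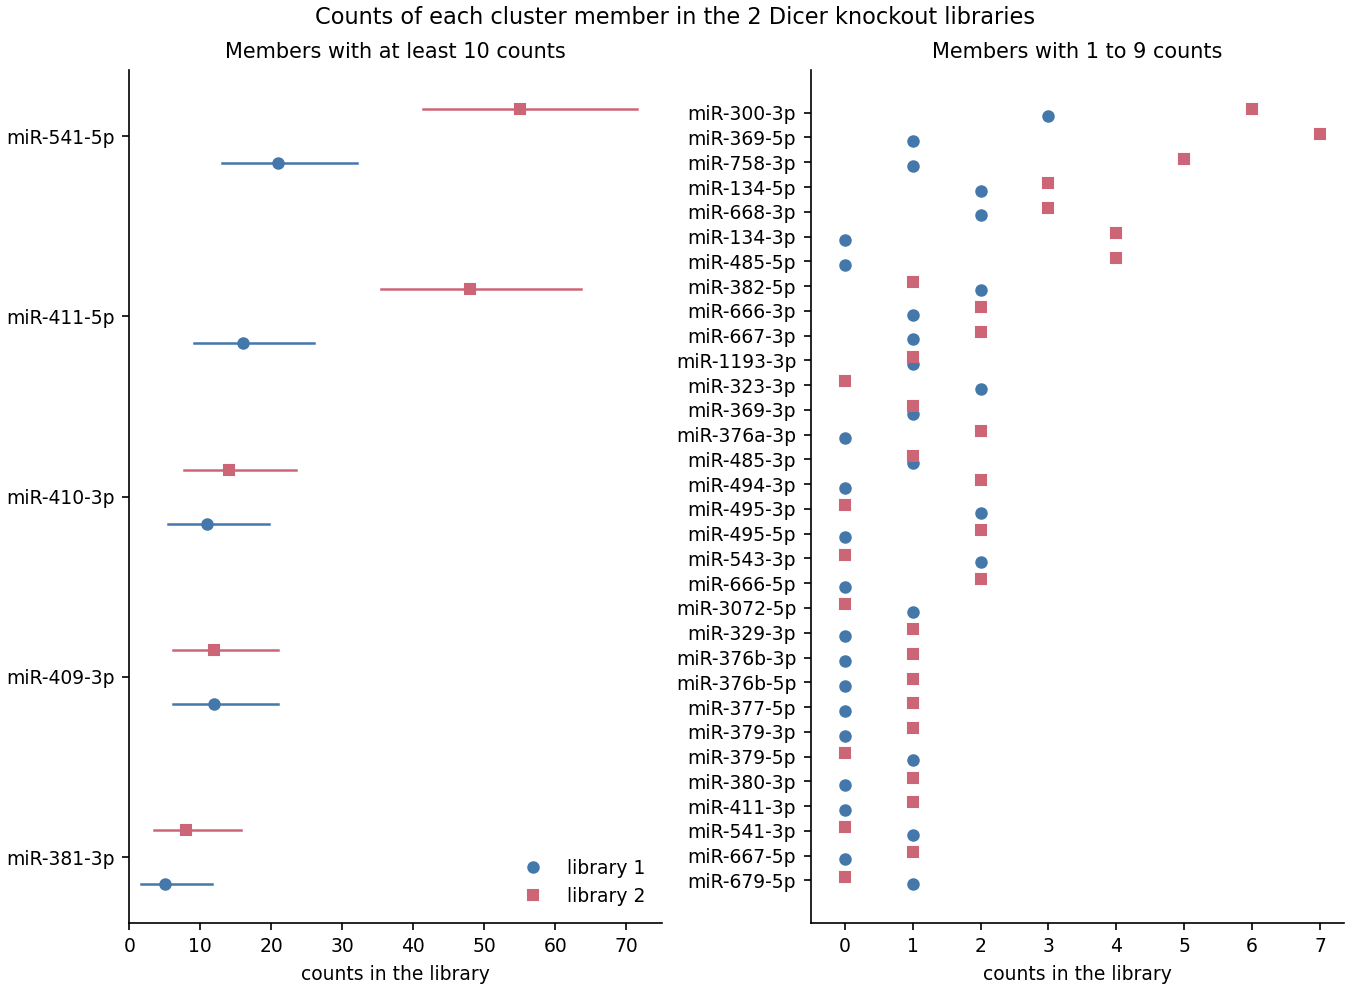
Counts of the 37 cluster members with a count in library 1 (circles) and library 2 (squares); the left panel shows the 5 members with at least 10 counts over both libraries with exact 95% Poisson intervals, the right panel the 32 members with 1 to 9 counts. miR-541-5p and miR-411-5p stand apart in library 2, at 55 and 48 counts, and their intervals do not overlap those of library 1.

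The most abundant member was miR-541-5p. Library 1 gave 21 counts of it (464 CPM) and library 2 gave 55 (1468 CPM), a mean of 966 ± 709 CPM (SD, n = 2). It ranked 65 in library 1 and 29 in library 2 among all miRNAs of the table. Of its opposite arm, miR-541-3p, there was 1 count in library 1 and none in the other.

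The next was miR-411-5p, from the second hairpin of the cluster. Library 1 gave 16 counts of it (354 CPM) and library 2 gave 48 (1281 CPM), a mean of 817 ± 655 CPM (SD, n = 2). Its rank was 77 in library 1 and 31 in library 2, and miR-411-3p had 0 counts and 1 count. These 2 5p arms together made up 40.7% of the cluster's counts in library 1 (95% Wilson interval 31.1 to 50.9) and 53.4% in library 2 (46.3 to 60.3). These intervals overlap, which does not show that the shares are equal, and their difference was not tested.

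The other 3 members with at least 10 counts are 3p arms, and their counts lay closer together in the 2 libraries. miR-410-3p, from the last hairpin before the end of the cluster, was counted 11 and 14 times in libraries 1 and 2, at 308 ± 92.2 CPM (SD, n = 2). miR-409-3p was counted 12 times in each library, at 265 CPM in the first and 320 CPM in the second. miR-381-3p was counted 5 and 8 times, at 162 ± 72.8 CPM (SD, n = 2). The other arms, miR-410-5p, miR-409-5p and miR-381-5p, were at 0 in both libraries. miR-381-3p is the least counted member that was tested, with 13 counts in all, and the most counted one left out is miR-300-3p with 9.

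Each miRNA with at least 10 counts over both libraries was compared between them with a two-sided Fisher's exact test that set its counts against all remaining counts, and p-values were adjusted by Benjamini-Hochberg over all 129 miRNAs tested. The test compares 2 libraries, not conditions. A call needed an adjusted p below 0.05 and at least a 2-fold difference in CPM. Of all miRNAs tested, 7.75% were called, and 4.65% were called higher in library 2. Of the 5 cluster members tested, 2 were called, both higher in library 2.

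miR-411-5p was 3.62-fold higher in library 2, with a counting interval of 2.02 to 6.83 (log2 ratio 1.86, Fisher's exact test, adjusted p = 1.95e-05). miR-541-5p was 3.16-fold higher, with an interval of 1.88 to 5.50 (log2 ratio 1.66, Fisher's exact test, adjusted p = 2.37e-05). Fisher's exact test assumes that replicate libraries vary by counting error alone. Under edgeR's exact test with a preset biological coefficient of variation of 0.2, both lost the call along with every other miRNA (0% called), with adjusted p of 0.0721 for miR-411-5p and 0.113 for miR-541-5p. With a preset value of 0.1, under which 5.43% of all tested were called, both kept it in edgeR's exact test, with adjusted p of 0.00183 and 0.0028.

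The 3 tested 3p arms were not called. The log2 ratio was 0.95 for miR-381-3p, 0.62 for miR-410-3p and 0.27 for miR-409-3p, with adjusted p of 0.544, 0.623 and 0.879 by Fisher's exact test. Their sum was 28 in library 1 against 34 in library 2, 1.47 times the share with an interval of 0.862 to 2.51, which includes 1 and also includes a 2-fold difference. All 5 tested members had a higher CPM in library 2, against 59 of all 129 miRNAs tested (45.7%). Their median log2 ratio was 0.95, against -0.05 over all 129.

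**Figure D2:**
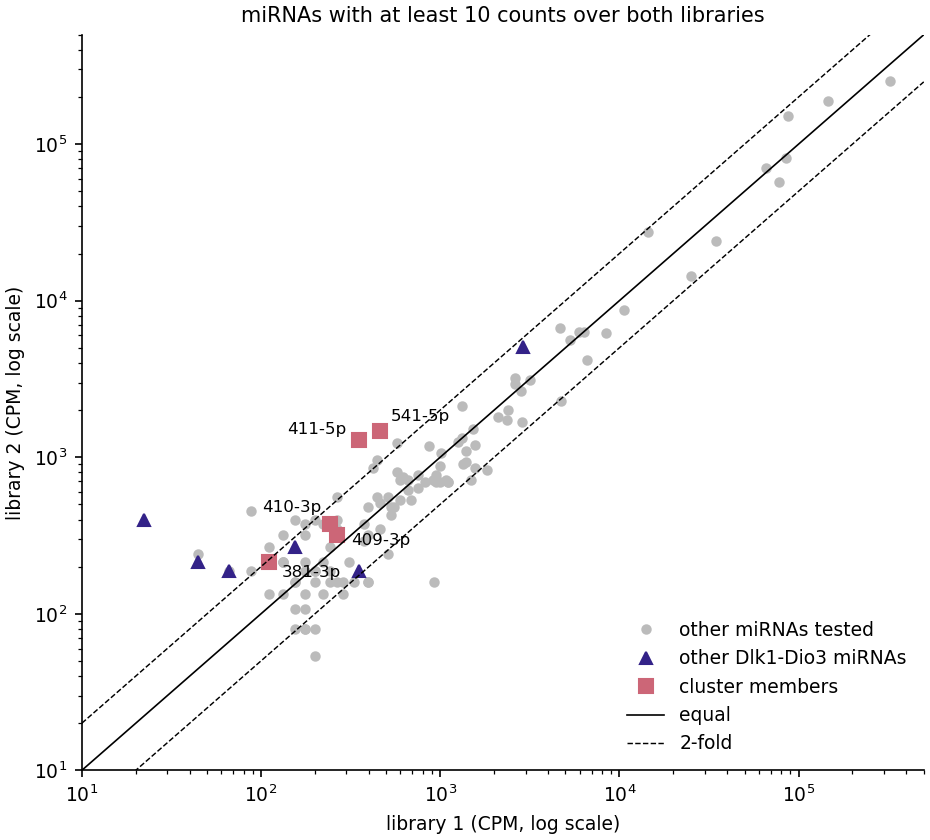
CPM of the 129 miRNAs with at least 10 counts over both libraries, library 1 against library 2, both on log axes; the solid line marks equal CPM and the dashed lines 2-fold differences. The cluster members miR-411-5p and miR-541-5p (squares) lie above the upper dashed line, and the other 3 members lie between the lines.

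The 32 members with 1 to 9 counts were too sparse to test singly. Their sum was 26 in library 1 against 56 in library 2, 2.60 times the share (counting interval 1.61 to 4.31). The CPM was higher in library 2 for 24 of them and higher in library 1 for 8. The 24 include miR-1193-3p, miR-369-3p and miR-485-3p with 1 count in each library, which rank as higher only because the total of library 2 is smaller. The same split over all sparse miRNAs of the table is not given, so it is not known whether this one is particular to the cluster. Without the 2 called members the remaining members still gave 54 counts in library 1 against 90 in library 2, 2.01 times the share (1.42 to 2.87).

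Among these sparse members are several with known roles. miR-134, a neuronal miRNA that limits dendritic spine size through Limk1, had 2 and 3 counts for its 5p arm in libraries 1 and 2, and 0 and 4 for its 3p arm. For miR-369-5p there was 1 count in library 1 and there were 7 in library 2. The other arm, miR-369-3p, which is known to bind the AU-rich element of the TNF mRNA, had 1 count in each. miR-485-5p, which is known to act at synapses, had 0 and 4 counts, and miR-485-3p had 1 in each.

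For miR-758-3p there was 1 count in library 1 against 5 in library 2. miR-300-3p had 3 and 6 counts. Its mature sequence matches that of miR-381-3p at 19 of 22 positions, with the changes A4G, G21U and U22C from miR-381-3p to miR-300-3p, counted from the 5′ end. The pair is shown with the differing bases inside and outside the capital seed.
miR-381-3p: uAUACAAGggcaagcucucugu
miR-300-3p: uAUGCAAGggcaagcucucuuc
How reads shared by similar miRNAs were assigned is not given in the sources used here, so the split between these 2 entries is uncertain. The miR-376 family, known for adenosine-to-inosine editing of its hairpins in brain, had 2 counts for miR-376a-3p and 1 each for miR-376b-3p and miR-376b-5p, all in library 2, and none for miR-376c.

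The remaining members with counts had at most 3 in either library. Counts in both libraries were found for miR-668-3p (2 in library 1 and 3 in library 2), miR-382-5p (2 and 1), miR-666-3p and miR-667-3p (1 and 2 each) and miR-1193-3p (1 and 1). In library 2 alone, miR-494-3p, miR-495-5p and miR-666-5p had 2 counts each, and miR-329-3p, miR-377-5p, miR-380-3p and miR-667-5p had 1 each. In library 1 alone, miR-323-3p, miR-495-3p and miR-543-3p had 2 counts each, and miR-679-5p and miR-3072-5p had 1 each. None of these counts exceeds the limit of 3 that a count of 0 allows, so no difference between the libraries was detectable for them singly.

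Of the 67 seeds among the 74 members with a RefSeq mature sequence, 7 were shared by 2 members, and 1 of these by 2 members with counts. That seed belongs to miR-379-3p and miR-411-3p, shown here because the first 2 hairpins of the cluster yield it.
miR-379-3p: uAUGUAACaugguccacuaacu
miR-411-3p: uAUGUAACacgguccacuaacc
Each had 1 count in library 2 and none in library 1. Their partner arms miR-379-5p (1 and 0 counts) and miR-411-5p (16 and 48) differ in the seed, with A2G from miR-411-5p to miR-379-5p. Outside the cluster, the seed of miR-411-5p is also that of miR-7229-5p, which had 2 and 0 counts. The seed of miR-410-3p is also that of miR-344d-3p and miR-344e-3p, both at 0.

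First base and base content are given for members with and without counts side by side. Of 36 members with a count and a sequence, 14 began with U and 13 with A, and of 38 at 0, 17 began with U and 14 with A. The median GC content was 46.5% with a count and 47.6% without, and the median length was 22 bases in both. The arms miR-485-5p, miR-376c-3p, miR-487b-3p and miR-539-3p are named only.

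The counts came both from the stretch before Mirg and from the stretch within it. The 25 hairpins before Mirg gave 36 counts in library 1 against 87 in library 2, 2.92 times the share (1.96 to 4.43), and 17 of them had a count. The 14 hairpins within Mirg had 55 and 106 counts, 2.33 times the share (1.66 to 3.28), and 10 had a count. Without Mir411 the first ratio was 2.29 (1.30 to 4.16), and without Mir541 the second was 1.86 (1.18 to 2.98). These intervals overlap throughout, and the difference between the 2 stretches was not tested.

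From Mir541 to Mir410, 5 hairpins lie within 1.39 kb, all on the plus strand. They gave 22, 12, 0, 2 and 11 counts in library 1 and 55, 12, 0, 8 and 14 in library 2, in the order Mir541, Mir409, Mir412, Mir369 and Mir410. Neighbouring hairpins thus ranged from 0 to 55 counts in 1 library. No count came from Mir412, Mir453, Mir154 and Mir496a within Mirg, nor from Mir299a, Mir299b, Mir1197, Mir376c, Mir654, Mir487b, Mir539 and Mir544 before it.

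**Figure D3:**
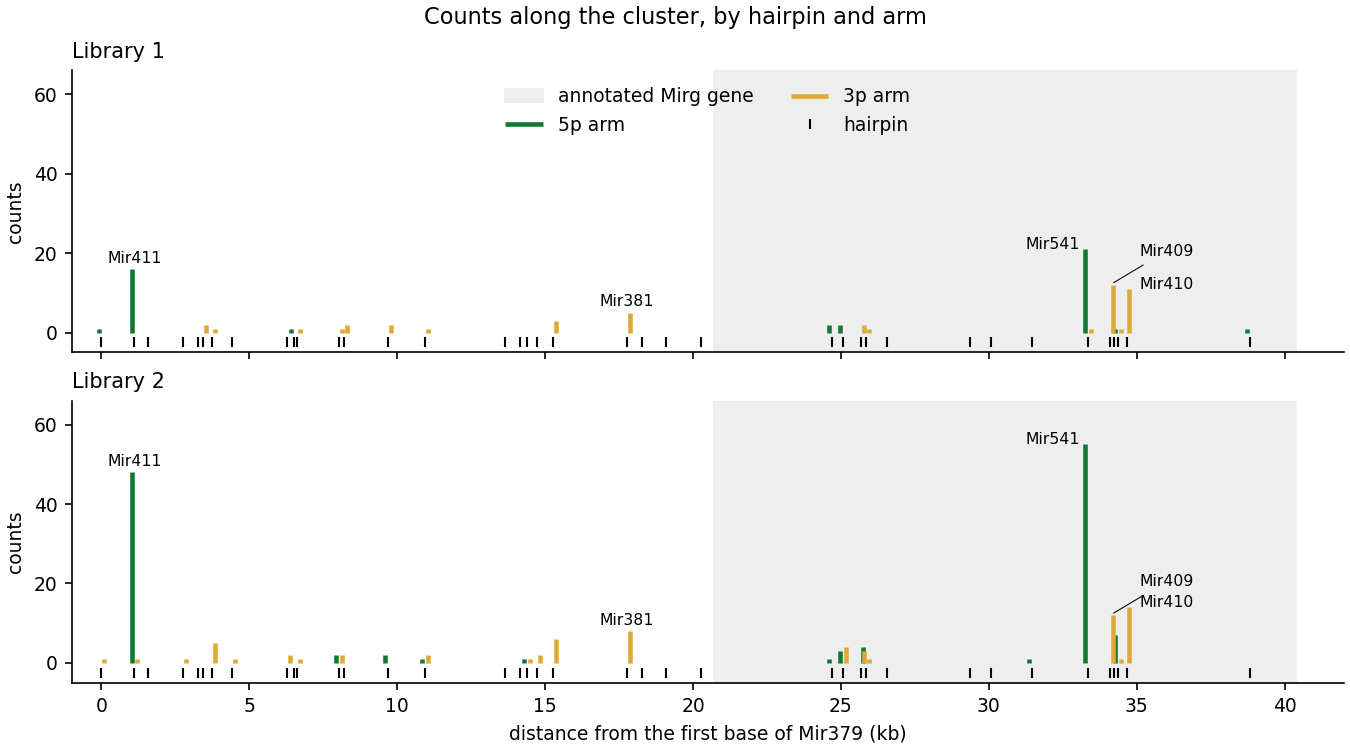
Counts by hairpin along the cluster in library 1 (top) and library 2 (bottom), placed by distance in kb from the first base of Mir379; green bars are 5p arms, yellow bars 3p arms, ticks all 39 placed hairpins, and the shaded stretch is the annotated Mirg gene. The tallest bars in both libraries are the 5p arms of Mir411, before Mirg, and of Mir541, within it.

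In cells with Dicer, both arms of a hairpin are released together, and usually 1 of them is kept. Both libraries here are Dicer knockout, and how the arms counted in them arose was not tested. Of the 27 hairpins with counts, 13 had only 3p counts, 4 only 5p counts and 10 had both. The 3p arm had more counts in 15 hairpins, the 5p arm in 9, and in 3 they were equal. Summed over the 38 hairpins listed with both arms, 45 of 91 counts in library 1 belonged to 5p arms, 49.5% (95% Wilson interval 39.4 to 59.5), and 125 of 193 did in library 2, 64.8% (57.8 to 71.2), a mean of 57.1% ± 10.8 (SD, n = 2). Over all other hairpins of the table the 5p share was 84.9% in library 1 (84.2 to 85.5) and 79.7% in library 2 (78.7 to 80.6). That value rested on its own most counted hairpins. Without miR-182, miR-183 and miR-21a it was 69.6% in library 1 (68.3 to 71.0) and 61.5% in library 2 (59.8 to 63.1). In library 1 this interval lies above that of the whole cluster without overlap, and in library 2 it lies within that of the whole cluster. With the most counted hairpins left out on both sides, the cluster lay below the other hairpins in both libraries. Without Mir541 and Mir411 it had 15.1% in library 1 (7.85 to 27.1) and 24.7% in library 2 (16.9 to 34.6).

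The 5p share of the cluster rested on 2 hairpins. Without Mir541 its mean was 42.8%, and without Mir541 and Mir411 it was 19.9%, at 15.1% in library 1 (7.85 to 27.1) and 24.7% in library 2 (16.9 to 34.6). The 5p arms of the cluster had 3.35 times the share in library 2 (2.37 to 4.82) and the 3p arms 1.78 times (1.21 to 2.65). These intervals overlap, which does not show that the ratios are equal, and their difference was not tested.

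The neighbouring miRNAs of the Dlk1-Dio3 domain also held a larger share of library 2. The 36 listed arms around Meg3, Rtl1 and Rian gave 166 counts in library 1 against 250 in library 2, 1.82 times the share (1.49 to 2.22). That interval overlaps the one of the Mir379 to Mir410 cluster, but whether the ratios differ was not tested. Tests of single arms follow. Of the 6 that were tested, 5 had a higher CPM in library 2 and 1 was called, miR-434-5p with 1 and 15 counts. The only tested one with a lower CPM in library 2 was the other arm of that hairpin, miR-434-3p. It had 16 and 7 counts (log2 ratio -0.92) and was not called. The largest, miR-127-3p, which lies opposite Rtl1 and is known to direct cleavage of the Rtl1 mRNA, had 131 and 190 counts (log2 ratio 0.81, Fisher's exact test, adjusted p = 9.55e-06), under the 2-fold minimum. Without it the list had 35 and 60 counts, 2.07 times the share (1.34 to 3.23). The 2 called members of the Mir379 to Mir410 cluster are 5p arms, and 5p arms held 6.02% of the neighbouring list in library 1 and 12.8% in library 2.

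Of other miRNA clusters, 2 were summed for comparison. On the library total, the miR-183, miR-96 and miR-182 cluster had 0.715 times the share in library 2 (0.683 to 0.747), and the ratio lay between 0.648 and 0.884 on the 4 other scales tried. For the miR-290 cluster the direction depended on the scale. It had 0.894 times the share (0.830 to 0.964) on the library total, but 1.11 times (1.03 to 1.19) when only miRNAs numbered up to 1000 made up the total, and its 1 called arm, miR-294-3p with 26 and 46 counts, was higher in library 2. All miRNAs numbered 1000 or below outside the Mir379 to Mir410 cluster had 0.794 times the share (0.771 to 0.818) on the library total, but 0.983 times (0.955 to 1.01) on the total of miRNAs numbered up to 1000, an interval that includes 1. The Mir379 to Mir410 cluster itself had 2.32 to 3.22 times the share on these 4 scales. Over the 107 tested miRNAs numbered 1000 or below outside the cluster, the median log2 ratio on the library total was -0.14. Of the marker lists, that of mesenchyme (miR-143, miR-145a, miR-199a and miR-214) had more counts in library 2. Of its arms 4 of 8 had counts, 7 in library 1 and 15 in library 2. Most of these came from miR-143-3p, with 6 and 12 counts, which was not called. The arms miR-143-5p, miR-199a-5p, miR-214-3p and miR-214-5p were at 0. Any relation of this list to the cluster was not tested. The neural, blood and let-7 lists had fewer counts in library 2, which has the smaller total, than in library 1. Their shares went from 0.0641% to 0.0267% (neural), from 0.0221% to 0.0133% (blood) and from 0.0663% to 0.032% (let-7 with miR-98). The blood list rests on 10 and 5 counts, and none of these lists was tested. In bulk samples, fewer cells with a miRNA and less of it per cell cannot be told apart.

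**Figure D4:**
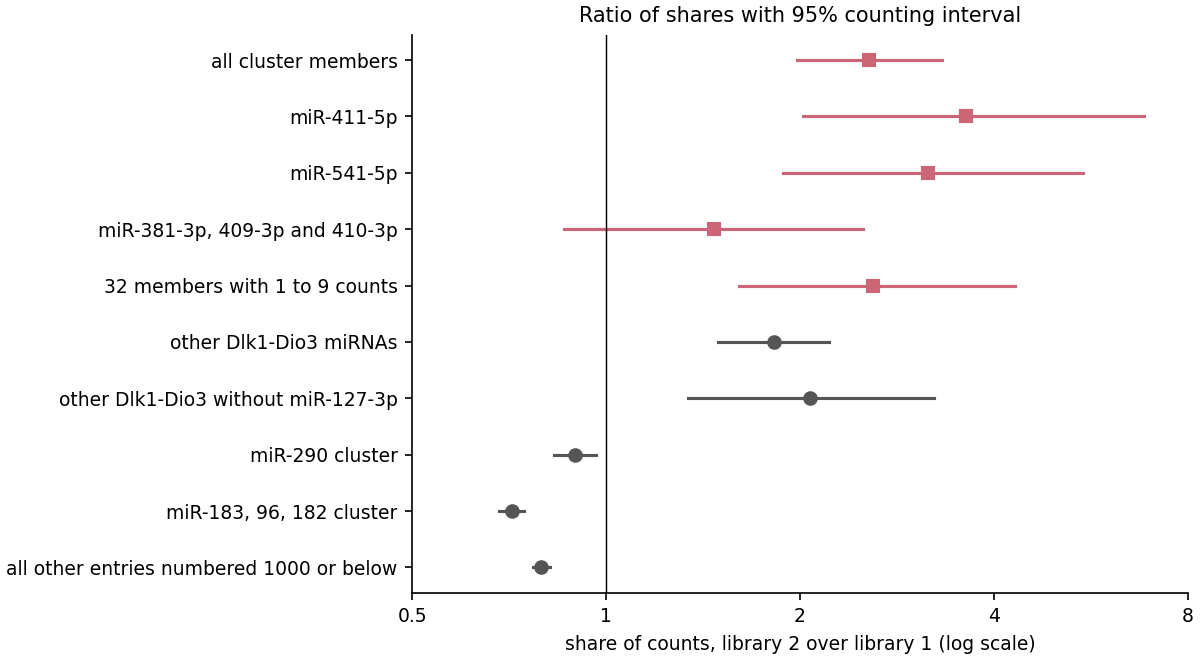
Ratio of the share of counts in library 2 to that in library 1, on a log axis, with 95% exact binomial intervals for counting error; squares are the cluster and its members, circles other lists, and the last list takes in every miRNA numbered 1000 or below outside the cluster. The whole cluster lies at 2.56, the 3 summed 3p arms at 1.47 with an interval that includes 1, and the 3 lists at the bottom lie below 1 on the library total used here; on the total of miRNAs numbered up to 1000 the miR-290 cluster lies above it, at 1.11.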

How the data were processed

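Small RNA of 2 Dicer knockout embryonic stem cell samples was sequenced after TruSeq small RNA library preparation, per the labels' protocols. The deposited table holds raw, whole-number counts per mature miRNA, 1 column per sample, matched by title. The submitters' processing notes name cutadapt, STAR, featureCounts and the mm10 build, without versions or roles; the annotation, strand setting and treatment of multiply matching reads are not given in the sources used here. No column was left unmapped.

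CPM used each column's total. Positions come from GENCODE M21 (GRCm38, the mm10 assembly), matched by hairpin name, and 74 mature and 37 hairpin sequences of the cluster from RefSeq (GRCm38.p6). With 1 library on each side edgeR's quasi-likelihood test and DESeq2 had no residual degrees of freedom, so Fisher's exact test was run on all miRNAs with at least 10 counts. It was checked on simulated data that, apart from the changes put in, varied by counting error alone. That check therefore does not cover variation between replicates. The changes put in were larger than the 2-fold minimum and than those of the called members, so changes of that size were not covered either. Alternatives were other count minimums, fold minimums, scales (TMM from edgeR among them), memberships, and edgeR's exact test with preset variation. Named were members with at least 10 counts, their other arms, called members and members sharing a seed; the other members named were chosen after their values were seen. Members and lists were chosen with earlier results of these data known. Leaving out the most counted hairpins (Mir541 with Mir411, and 3 outside the cluster) from the 5p shares, and the other scales for the lists outside the cluster, were added after seeing the data. Tests ran in scipy 1.17.1 under Python 3.11.15 and in edgeR 4.0.16 under R 4.3.3; tables used pandas 2.3.3 and numpy 2.4.6.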

Additional observations from a re-analysis of the deposited data

How the results depend on the processing

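Depth limits what can be said of single members: 5 of 78 reached the 10 counts needed for the test, and 41 had none. The cluster's mean share, 0.358%, was 2.87% on the total without the 10 most abundant entries and 1.62% when only miRNAs numbered up to 1000 made up the total, by construction of the smaller totals. Leaving out 1 replicate in turn gave 0.201% to 0.515% for this share, 4 detected members each time and 49.5% to 64.8% for the 5p share; differences between the libraries need both. The 4 members detected in both libraries became 1 at a minimum of 20 counts. The 2 calls became 0 at a 4-fold minimum, where 2.33% of all miRNAs tested were called, and 0 under edgeR's exact test with a preset variation of 0.2, where 9 miRNAs, 2 of them members, had an unadjusted p under 0.05. Under the other 7 settings 2 members were called, each time miR-411-5p and miR-541-5p, while 2.08% to 19.4% of all miRNAs tested were called. The 5 members higher in library 2 became 29 of 37 when every member with a count entered. That number includes members with 1 count in each library, and the same number over the whole table is not given. The 5p share, 57.1%, was 42.8% without Mir541, 44.2% as the mean of the hairpins' own shares and 19.9% without Mir541 and Mir411. The total limited to numbers up to 1000 moved every log2 ratio by 0.31 towards library 2, and the total without the most abundant entry by -0.14. The ratio of the cluster's share stayed between 2.01 and 3.22 under the 7 alternatives run. That of the miR-290 cluster, 0.894, turned to 1.11 on the total limited to numbers up to 1000. The 5p share of all other hairpins, 82.3%, was 65.6% without the 3 most counted. No paired analysis was possible because both libraries belong to 1 group.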

Other observations

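Some hairpins of the cluster hold the same runs of letters, which was noticed when the sequences were read and is given as a description. The runs were picked from these same hairpins, so a higher share there than in other hairpins follows at least partly from that choice. The contrast was not tested. A run was counted wherever it lay in the hairpin, within or outside the mature arms. The letters UACUUG, searched on the hairpin strand as RefSeq gives it, occur in 10 of the 37 cluster hairpins with a sequence (27.0%) and in 16 of 968 other mouse hairpins (1.65%). The letters AGUAUC occur in 7 of the 37 (18.9%) and in 14 of the 968 (1.45%). None of the 19 hairpins around Meg3, Rtl1 and Rian holds either of them. A shorter run searched with them, GGUUG, occurs in 12 of the 37 (32.4%), in 95 of the 968 (9.81%) and in 1 of the 19. It can lie inside a mature arm, as in miR-758-5p. The median hairpin length was 79 bases in the cluster and 79 in the others. Mir411 holds UACUUG and AGUAUC, 1 at each end, and Mir541 holds neither.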
